A study of Rattus norvegicus and Mus musculus with 10 samples.

Results

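The antibody light chains of leukocytes from mouse skull dura, the outer membrane around the brain, were described from a table of receptor contigs for each condition. A contig is a receptor transcript assembled from the reads of a cell barcode. For each barcode the productive kappa (IGK) or lambda (IGL) contig with the most unique molecular identifiers (UMIs), then the most reads, was kept. Such a chain was present on 145 of 159 barcodes of the naive table and on 1152 of 1185 barcodes of the EAE table, 1297 of 1344 in all. The naive table came from 4 pooled unimmunized C57BL/6 mice. The EAE table came from 3 mice of the same strain, pooled at peak disease in active experimental autoimmune encephalomyelitis (EAE), an immunization model of brain autoimmunity. Cells had been sorted as positive for CD45, a pan-leukocyte protein, and negative for a CD45 antibody given into the blood, which leaves out cells inside vessels. The receptor transcripts were enriched out of the cDNA of 3′ expression libraries, so each condition should have an expression library with the same barcodes. The labels give no age or sex of the mice. Each condition was a single pooled sample, so no difference below has a replicate check, no test was run, and the exact (Clopper-Pearson) 95% intervals cover counting error only. Receptor transcripts were amplified before sequencing, which these intervals do not cover.

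An antibody light chain gene is made in a developing B cell by joining a V gene to a J segment. The third complementarity-determining region (CDR3) spans that join, running from a conserved cysteine codon to a conserved phenylalanine codon. Light chains have no D segment, so their CDR3s vary less than those of heavy chains, and the same chain can arise in unrelated cells. A B cell usually makes a single light chain, either kappa or, less often in mice, lambda. Plasma cells carry far more antibody mRNA than other cells of the B lineage.

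The chains that held most barcodes are shown first, by CDR3, because the results turn on them. Lower-case bases match the germline V gene of the C57BL/6 genome over the first 21 bases of the CDR3 or lie beyond those bases, and capitals mark differences from it. Positions are counted from 1 at the first base of the cysteine codon. The leading chains of the naive table were:
IGLV1 IGLJ1: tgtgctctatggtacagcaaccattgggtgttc
IGKV12-98 IGKJ1: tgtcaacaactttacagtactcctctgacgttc
IGKV4-72 IGKJ2: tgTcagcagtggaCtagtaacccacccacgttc
IGKV6-25 IGKJ1: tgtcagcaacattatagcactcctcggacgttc
IGKV6-15 IGKJ4: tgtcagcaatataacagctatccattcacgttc

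The 6 chains with the most barcodes in the EAE table, called the 6 leading chains below, were:
IGKV15-103 IGKJ1: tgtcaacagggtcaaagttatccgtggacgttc
IGKV9-124 IGKJ4: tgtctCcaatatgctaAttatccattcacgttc
IGKV6-23 IGKJ2: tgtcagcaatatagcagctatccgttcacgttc
IGKV3-4 IGKJ1: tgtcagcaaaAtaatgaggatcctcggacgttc
IGKV1-88 IGKJ2: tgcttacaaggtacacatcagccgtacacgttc
IGKV1-135 IGKJ2: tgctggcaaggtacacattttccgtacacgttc

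Of the 6 leading EAE chains, 4 matched their germline V gene over these 21 bases. The IGKV9-124 chain differed at A6C and G17A, and the IGKV3-4 chain at G11A. In the naive table the IGKV4-72 chain differed at C3T and G14C. The other leading naive chains shown had no difference.

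The barcodes of the tables were compared with those of the expression libraries before anything else. The sample titles name the conditions used here, but the descriptions of both receptor samples name the opposite condition and the characteristics give EAE for every mouse sample. Of the EAE table's 1185 barcodes, 877 occurred among the 5000 barcodes of the EAE expression library and 3 among the 3126 of the naive library. Of the naive table's 159 barcodes, 0 occurred in either mouse library and 5 in the rat libraries of the series. The contig tables shared 0 barcodes, and the mouse expression libraries shared 8. The EAE table thus shared most of its barcodes with the library that its title names, whereas the naive table could not be tied to a cell of known type, and its values are those of the table labelled naive. The kept contig had a median of 11 UMIs (quartiles 6 and 19) in the naive table and 19 (12 and 30) in the EAE table.

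The naive table was rich in lambda chains and the EAE table was almost all kappa. A kappa chain was kept on 77 of 145 naive barcodes (53.1%, interval 44.6 to 61.4%) and on 1140 of 1152 EAE barcodes (99.0%, 98.2 to 99.5%). Lambda was kept on 68 naive and 12 EAE barcodes. Counted once per distinct chain, where a chain is defined by its V gene, J segment and CDR3 nucleotides, the tables lay closer. Kappa made 18 of 22 distinct naive chains (81.8%, 59.7 to 94.8%) and 117 of 122 distinct EAE chains (95.9%, 90.7 to 98.7%), and these intervals overlapped. The lambda barcodes of the naive table were thus mostly a single repeated chain. The kappa share of the naive table was 30.2% of 86 barcodes when only barcodes with exactly 1 productive light contig were kept.

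That lambda chain, IGLV1 joined to IGLJ1, was on 65 naive barcodes (44.8%, 36.6 to 53.3%) and held 33054 UMIs. Its UMIs per barcode ranged from 1 to 12743 with a median of 7. Among the naive barcodes, 8 shared their first 9 bases, of 16 in a barcode. All 8 carried this chain, and together they held 81.0% of the UMIs of all kept naive chains. Leaving them out moved no share of the naive table outside its interval. The shares among kappa barcodes could not change, because all 8 were lambda. The cause of the shared barcode start was not tested. The other lambda genes were rare in the naive table, with IGLV2 on 2 barcodes and IGLV3 on 1. In the EAE table IGLV1 was on 10 barcodes and IGLV2 on 2, while IGLV3 was on 0 of 1152, which allows a share of up to 0.260%. That limit is 3 counts of the total, and the exact interval reaches 0.320%. With only single-contig barcodes, IGLV1 reached 67.4% in the naive table.

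A few chains held most barcodes of each table. Of the naive barcodes, 134 of 145 (92.4%, 86.8 to 96.2%) carried a chain found on at least 2 barcodes, and there were 11 such chains. Of the EAE barcodes, 1067 of 1152 (92.6%, 91.0 to 94.1%) did, in 37 chains. The 6 most frequent chains covered 82.1% of the naive barcodes and 81.4% of the EAE barcodes. The remaining chains were on 1 barcode each, 11 in the naive table and 85 in the EAE table.

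**Figure D1:**
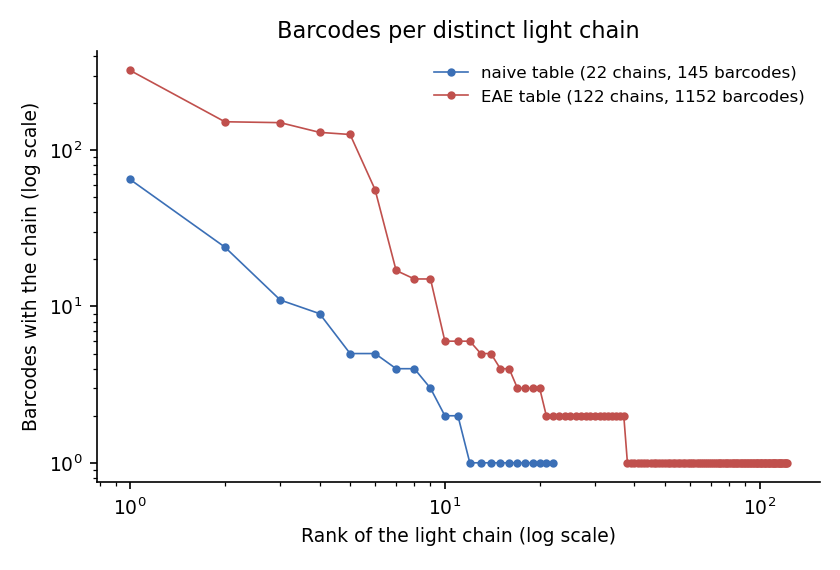
Barcodes carrying each distinct light chain (y axis, log scale) against the rank of the chain in its table (x axis, log scale); each point is a chain. The first EAE chain was on 324 barcodes and the first naive chain on 65, and the EAE curve drops from 56 barcodes at the sixth chain to 17 at the seventh.

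In the naive table the order after IGLV1 was IGKV12-98 IGKJ1 with 24 barcodes (16.6%, 10.9 to 23.6%), IGKV4-72 IGKJ2 with 11 (7.59%), IGKV6-25 IGKJ1 with 9 (6.21%) and IGKV6-15 IGKJ4 with 5 (3.45%). The last 3 had overlapping intervals. In the EAE table IGKV15-103 IGKJ1 led with 324 barcodes (28.1%, 25.5 to 30.8%). It was followed by IGKV9-124 IGKJ4 with 152 (13.2%), IGKV6-23 IGKJ2 with 150 (13.0%), IGKV3-4 IGKJ1 with 130 (11.3%) and IGKV1-88 IGKJ2 with 126 (10.9%), whose intervals overlapped. IGKV1-135 IGKJ2 came sixth with 56 (4.86%, 3.69 to 6.27%), below the interval of each of these 5. The UMI medians of the 6 chains lay between 12 and 26 per barcode, and their median reads between 96 and 1809. Many rarer EAE chains, though not all, had far more reads at similar UMIs. The IGKV10-96 IGKJ1 chain on 5 barcodes had median values of 36490 reads and 16 UMIs. The cause of this gap in reads was not tested.

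V gene use therefore depended on what was counted. The mouse kappa genes lie on chromosome 6 and the lambda genes on chromosome 16 (GRCm38, GENCODE M21). The V genes of the 6 leading EAE chains are spread over the kappa locus. Igkv3-4 (70671788 to 70672377) lies 50.2 kb before Igkj1 and Igkv6-23 (70260409 to 70260955) 462 kb before it. Further out are Igkv1-88 (68862265 to 68863031, 1860 kb), Igkv15-103 (68437440 to 68437925, 2285 kb), Igkv9-124 (67942074 to 67942540, 2780 kb) and Igkv1-135 (67609713 to 67610508, 3112 kb). Per barcode, IGKV15-103 made 28.8% of the EAE table, but it made 4 of 122 distinct chains (3.28%, 0.900 to 8.18%). No EAE V gene had more than 6 distinct chains, the number of IGKV1-135 and of IGKV6-23 (4.92% each). Of the naive V genes, IGKV12-98 made 16.6% of barcodes and 1 of 22 distinct chains, whereas IGKV4-72 made 8.97% of barcodes and 3 of 22 chains. Some chains in these counts had a CDR3 also listed with another V gene, from which it differed at fewer bases. The naive IGKV4-72 IGKJ1 chain differed from its V gene at 10 of 21 bases. In the EAE table an IGKV15-103 IGKJ4 chain differed at 9 and an IGKV6-23 IGKJ5 chain at 6.

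**Figure D2:**
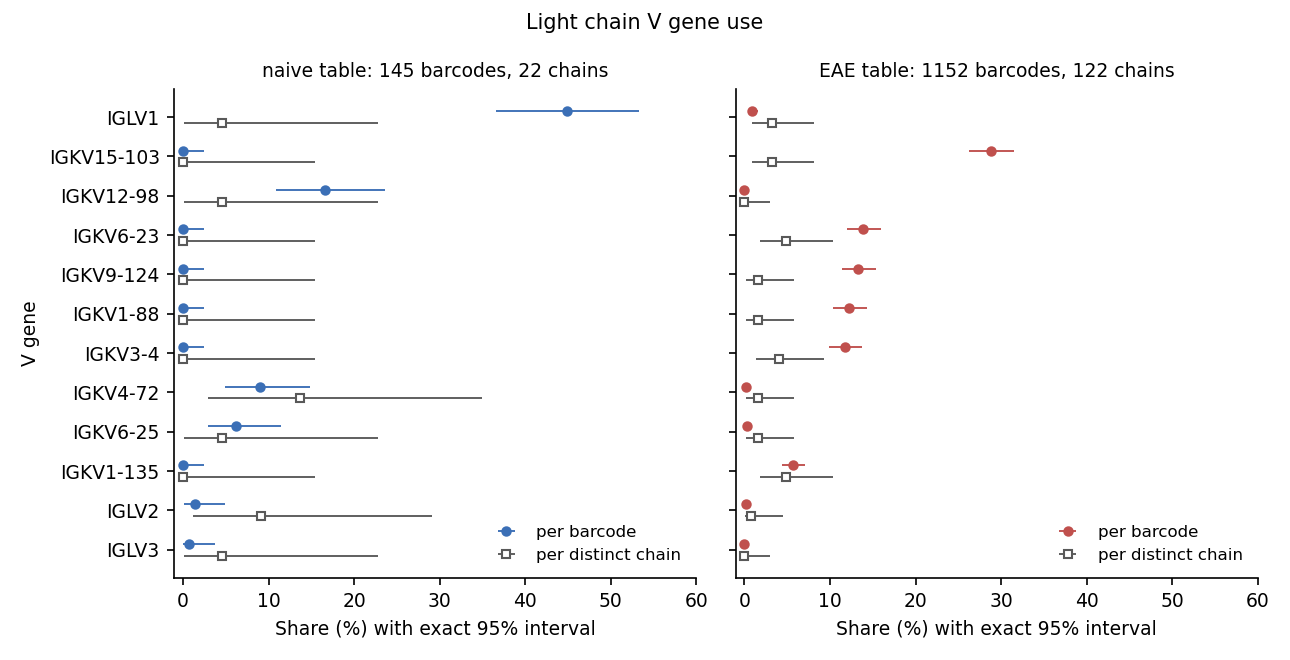
Share of light chain V genes (x axis, percent, with exact 95% intervals) per barcode (filled circles) and per distinct chain (open squares) in the naive and EAE tables. The plot shows V genes with at least 5% in either table by either count, and the lambda V genes; IGLV1 stands at 44.8% of naive barcodes and IGKV15-103 at 28.8% of EAE barcodes, and both are under 5% per distinct chain.

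The V genes that led one table were rare or unseen in the other. The naive table used 19 V genes, the EAE table used 52, and 12 were in both, 63.2% of the naive and 23.1% of the EAE genes. IGKV15-103, IGKV9-124, IGKV6-23, IGKV3-4, IGKV1-88 and IGKV1-135 were each on 0 of 145 naive barcodes, which allows a share of up to 2.07%. That limit is 3 counts of the total, and the exact interval reaches 2.51%. IGKV12-98 was on 0 of 1152 EAE barcodes, IGKV4-72 on 2 and IGKV6-25 on 3. The EAE table was deeper in barcodes. If 145 of its barcodes were drawn, 28.2 distinct chains would be expected, against the 22 of the naive table.

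Use of the kappa J segments followed the leading chains per barcode. Igkj1 to Igkj5 lie in a row on chromosome 6 from 70722562 to 70723927 (GRCm38), downstream of the V genes. IGKJ1 was on 44 of 77 naive kappa barcodes (57.1%, 45.4 to 68.4%) and 538 of 1140 EAE kappa barcodes (47.2%, 44.3 to 50.1%). IGKJ2 was on 18.2% of the naive and 34.4% of the EAE kappa barcodes, and IGKJ4 on 16.9% and 16.1%. IGKJ5 was on 6 naive barcodes (7.79%, 2.91 to 16.2%) and 26 EAE barcodes (2.28%, 1.495 to 3.32%). Per distinct chain, IGKJ5 made 3 of 18 naive (16.7%, 3.58 to 41.4%) and 20 of 117 EAE kappa chains (17.1%, 10.8 to 25.2%). Thus IGKJ5 chains were mostly chains with few barcodes: 20 EAE chains shared 26 barcodes. The EAE share of IGKJ5 per barcode was 4.30% where a heavy contig was also present and 1.16% where the barcode was in the expression library. Lambda chains used IGLJ1 on 66 of 68 naive and 9 of 12 EAE barcodes, and IGLJ2 on the rest.

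Distinct EAE kappa chains drew on V genes from the whole locus. The median distance of the V gene from Igkj1 was 1178 kb over 117 distinct EAE chains, with a range of 18.4 to 3166 kb. V genes under 1000 kb away made 54 of the 117 chains and those at 2000 kb or more made 41. By J segment, the median distance was 958 kb for IGKJ1 (43 chains), 1541 kb for IGKJ2 (32), 1495 kb for IGKJ4 (22) and 932 kb for IGKJ5 (20), with ranges that overlapped almost wholly. Of the 117 chains, 71 used V genes on the minus strand, which join by inversion, and 46 used V genes on the plus strand, which join by deletion. In the naive table these numbers were 10 and 8 of 18 chains.

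Kappa CDR3 length hardly varied. All 77 naive kappa barcodes and 1128 of 1140 EAE kappa barcodes (98.9%, 98.2 to 99.5%) had a CDR3 of 33 bases, or 11 codons with the conserved ends. Per distinct chain this held for 18 of 18 naive and 106 of 117 EAE chains (90.6%, 83.8 to 95.2%). The other 11 EAE chains had 24, 27, 30 or 36 bases, and they covered 12 barcodes. The 5 chains of 30 bases used IGKV19-93, IGKV4-91 and IGKV8-21. The single IGLV3 chain of the naive table had the longest CDR3, 45 bases. The V part of most distinct kappa CDR3s was unmutated as far as it was compared. With each CDR3 set against the listed V gene that differed least from it, 13 of 15 naive (86.7%, 59.5 to 98.3%) and 88 of 95 EAE kappa CDR3s (92.6%, 85.4 to 97.0%) had no difference from the germline V gene. The rest of the V gene was not compared.

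Some CDR3s were listed under several V genes. This was so for 4 of 18 distinct CDR3s in the naive table and 10 of 100 in the EAE table. The CDR3 of the IGKV15-103 chain was also listed with 5 other V genes, among them IGKV8-19 on 15 barcodes. Set against those V genes, the same bases show where they differ:
IGKV15-103 IGKJ1: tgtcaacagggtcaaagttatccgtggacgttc
IGKV8-19 IGKJ1: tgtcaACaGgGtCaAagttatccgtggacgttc
IGKV8-30 IGKJ1: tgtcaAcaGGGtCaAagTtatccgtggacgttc

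The IGKV8-19 gene differs from these bases at 6 of 21 positions and IGKV8-30 at 7, whereas IGKV15-103 differs at 0. Over all CDR3s with several V genes, the V gene on most barcodes was also the one with the fewest differences in 4 of 4 naive and 8 of 10 EAE cases. The less frequent listings covered 11 naive and 70 EAE barcodes. Whether they are separate rearrangements was not tested. Counted by CDR3 nucleotides alone, the tables held 18 and 100 distinct chains in place of 22 and 122.

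Many barcodes held a second productive light chain. A second one was present on 59 of 145 naive barcodes (40.7%, 32.6 to 49.2%) and 693 of 1152 EAE barcodes (60.2%, 57.3 to 63.0%), and none held more than 2. Of the 59 naive pairs, 48 were a kappa with a lambda chain, and of the 693 EAE pairs, 690 were kappa pairs. The pairs were built from the same few chains. Both chains were among the 6 most frequent of their table in 61.0% of the naive pairs (47.4 to 73.5%) and 64.6% of the EAE pairs (61.0 to 68.2%). IGKV12-98 with IGLV1 was the most frequent naive pair, on 16 barcodes, and IGKV15-103 IGKJ1 with IGKV9-124 IGKJ4 the most frequent EAE pair, on 95. The first chain of an EAE pair had a median of 22 UMIs and the second 10.

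The repeated chains were also paired with many heavy chains. A productive heavy contig was present on 78 naive (53.8%, 45.3 to 62.1%) and 307 EAE light chain barcodes (26.6%, 24.1 to 29.3%). The IGKV15-103 IGKJ1 chain had a heavy contig on 83 barcodes, with 15 distinct heavy chains. The most frequent were IGHV8-8 IGHJ4 on 26 barcodes and IGHV7-1 IGHJ1 on 25. The naive IGLV1 chain had one on 28 barcodes, with 13 distinct heavy chains, led by IGHV1-72 IGHJ3 on 11. The most frequent heavy chain was itself shared out over light chains. In the EAE table an IGHV8-8 IGHJ4 heavy chain was on 84 of 307 barcodes with 13 distinct light chains, and an IGHV7-1 IGHJ1 chain on 65 with 15. In the naive table an IGHV1-72 IGHJ3 chain was on 22 of 78 barcodes with 7 light chains. Of the chains on at least 2 barcodes, 10 of 11 naive and 15 of 37 EAE chains had at least 2 different heavy chains. A chain could show this only with a heavy contig on at least 2 of its barcodes. Most of the 37 EAE chains had fewer, so these shares do not compare the tables. With only barcodes that held a heavy contig, the EAE table had 75 distinct light chains.

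In the EAE expression library, light chains were found in every cluster that the authors named, including those of cells that do not make antibody. Of the cells in cluster Bc, the authors' name for mature B cells, 17 of 25 had a light chain (68.0%, 46.5 to 85.1%). Outside the clusters Bc, BcProg and cswBc, 752 of 4469 cells had one (16.8%, 15.7 to 17.96%). The share was 15.9% of 780 T, NK and innate lymphoid cells, 16.3% of 1078 granulocytes and 16.6% of 2466 myeloid and dendritic cells. These shares had overlapping intervals although their median library depths were 7287, 13637 and 12275.5 UMIs. Cluster BcProg, with 11 of 74 cells (14.9%, 7.66 to 25.0%), was within that background. Cluster pDC stood higher, at 42 of 126 cells (33.3%, 25.2 to 42.3%), with a median depth of 9453 UMIs. Outside the 3 B clusters, cells with a chain and cells without had median depths of 11431 and 11724 UMIs.

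**Figure D3:**
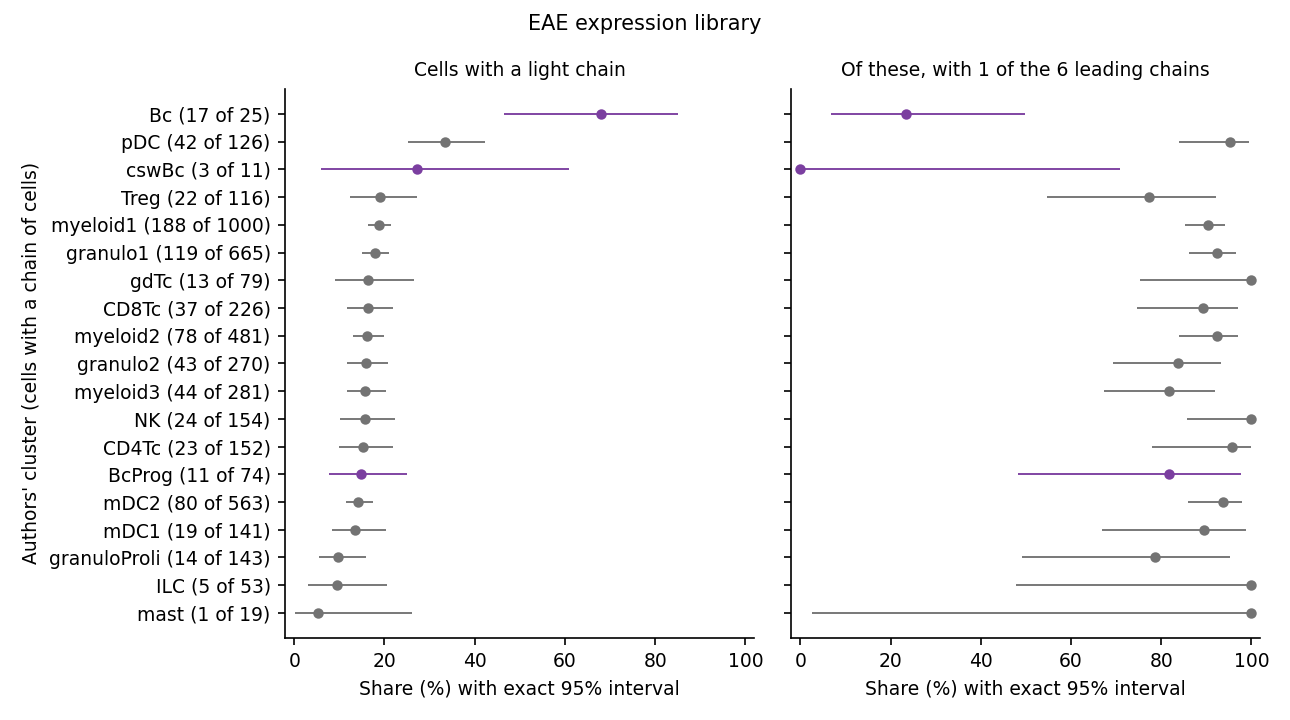
Share of EAE cells with a light chain by the authors' cluster (left) and, among those, share whose chain was 1 of the 6 leading chains of the table (right); x axes in percent with exact 95% intervals, B lineage clusters in purple. Cluster Bc stands at 68.0% on the left and 23.5% on the right, whereas cells outside the B clusters stand at 16.8% and 90.7% together.

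The chains on cells outside the B clusters were mostly the 6 leading chains, and those in cluster Bc mostly were not. The leading chains were picked by barcode number in the same table. Cells outside the B clusters gave 752 of its 1152 barcodes and cluster Bc 17, so this contrast was partly set in advance. Over the whole table the 6 leading chains made 81.4% of barcodes. The 6 leading chains made 682 of 752 chains outside the B clusters (90.7%, 88.4 to 92.7%) and 40 of 42 in cluster pDC. In cluster Bc they made 4 of 17 (23.5%, 6.81 to 49.9%). The 17 Bc cells had 17 distinct chains from 15 V genes, so no chain was repeated within the cluster. Of these, 9 were on no other barcode of the table (52.9%, 27.8 to 77.0%). Outside the B clusters this held for 11 of 752 (1.46%, 0.732 to 2.60%), and over the whole table for 85 of 1152 barcodes.

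Marker genes followed the same division. The clusters are the authors' own for this expression library, so B cell markers in cluster Bc are not an independent check. At least 2 UMIs over Cd79a and Cd79b, the signalling subunits of the B cell receptor, Ms4a1 (CD20) and Ebf1, a B lineage transcription factor, were present in 17 of 17 Bc cells with a light chain. Among cells outside the B clusters with a light chain, 31 of 752 had them (4.12%, 2.82 to 5.80%), and in cluster pDC 3 of 42 did. In BcProg, the authors' name for B progenitors, 4 of 11 did. Among all annotated cells, with or without a light chain and B clusters included, 164 of 4579 had them (3.58%, 3.06 to 4.16%). The share among cells outside the B clusters without a light chain was not computed, so 3.58% is not a like reference for 4.12%. Among all cells of cluster pDC, 8 of 126 did (6.35%, 2.78 to 12.1%). Pax5, another B lineage transcription factor, gave 10 UMIs over the 752 cells and 7 over the 17 Bc cells. How far free RNA or mixed barcodes contribute to the chains outside the B clusters was not tested.

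UMIs of Igkc, the kappa constant gene, were compared with those of the contig in the same cell. In the 13 Bc cells whose chain was not a leading one, the contig had 7 to 38 UMIs and Igkc 0 to 155. The Bc cell with an IGKV6-25 IGKJ2 chain had 27 contig UMIs and 110 Igkc UMIs, and the cell with an IGKV6-15 IGKJ1 chain had 26 and 108. The cell with 0 was the only lambda barcode of the table that was in the library. Its IGLV1 IGLJ1 contig had 14 UMIs, and it had 52 UMIs of Iglc1, the constant gene of that chain, and 5 of Iglc3. Contig UMIs exceeded Igkc UMIs in 3 of 17 Bc cells. Outside the B clusters they did so in 741 of 752 cells, whose Igkc median was 1 UMI.

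**Figure D4:**
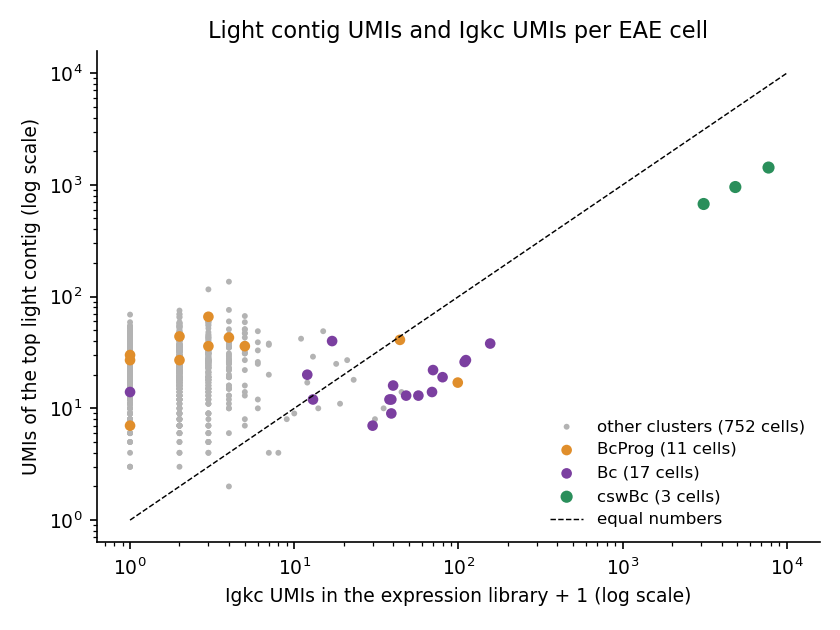
UMIs of the kept light contig (y axis, log scale) against Igkc UMIs plus 1 in the expression library (x axis, log scale) for the 783 EAE cells with a light chain and a cluster; the dashed line marks equal numbers. Of the 752 grey cells outside the B clusters, 741 have more contig than Igkc UMIs, whereas the 3 cswBc cells and 14 of the 17 Bc cells do not.

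The level of Igkc, as UMIs per 1000000 UMIs of the same cells (CPM), differed in the same way. Over the 16 Bc cells with a kappa chain, Igkc was at 6095 CPM (5706 to 6504), and over the 752 cells outside the B clusters at 117 CPM (110.0 to 124). The recombinase genes Rag1 and Rag2, which cut the V and J segments, had 0 UMIs in the cells of the 3 B clusters with a light chain. Of the 11 BcProg cells with a light chain, 2 had UMIs of Dntt, which adds bases at the join (42 UMIs in all, 192 CPM). Dntt also had UMIs in 39 of the 752 cells outside the B clusters (119 in all, 13.0 CPM). Vpreb1 and Igll1, the parts of the surrogate light chain of B cell precursors, had UMIs in 3 and 2 of the 11 BcProg cells (57 and 33 in all). Lyz2, a lysozyme gene of myeloid cells, had UMIs in all 11, at 14823 CPM, against 10115 CPM in the cells outside the B clusters. Of the other macrophage and monocyte genes examined, Ly6c2 was also higher in these BcProg cells (1338 against 682 CPM). The rest were lower: Csf1r (77.6 against 204 CPM), C1qa (27.4 against 1171), C1qb (45.7 against 1224) and Adgre1 (32.0 against 61.3).

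Cluster cswBc held nearly all kappa RNA of the EAE library. Its 11 cells had 3110 to 30176 Igkc UMIs each, 14.9 to 68.5% of the cell's UMIs, and together 93.1% of the library's 193084 Igkc UMIs. They had 26 to 2385 UMIs of Jchain, the joining chain of secreted IgA and IgM that plasma cells express. Reads of a 3′ library that reach the V gene are few, but each of the 11 cells had a most frequent kappa V gene, here called leading; lambda V genes are left out of that order. Iglv1 had 150 UMIs in the cell led by Igkv6-23, more than the 61 of that gene, and 27 in the cell led by Igkv8-30, as many as that gene. Igkv6-23 led in a cell with 61 UMIs, Igkv1-135 with 34, Igkv9-124 with 67, Igkv3-4 with 197 and Igkv1-88 with 99. Igkv15-103 led in 2 cells with 32 and 34 UMIs, Igkv6-14 in 2 with 10 and 3, Igkv8-30 in 1 with 27 and Igkv3-2 in 1 with 8. The lead of Igkv3-2 was narrow, as Igkv5-48 had 6 UMIs in that cell. The second kappa V gene had 12 UMIs in the Igkv1-135 cell (Igkv8-24) and 6 or fewer in the other cells. The V genes that led include the V genes of all 6 leading chains of the contig table. The 6 kappa V genes with the most UMIs in the EAE library were the 6 leading V genes of the EAE table. Lambda did not follow this pattern, as Iglv1 had more UMIs in that library than any kappa V gene (278, of which 274 were in cswBc cells) but was on 10 of 1152 barcodes. Of the 1152 EAE light chain barcodes, 1000 (86.8%, 84.7 to 88.7%) carried a V gene that led in a cswBc cell.

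**Figure D5:**
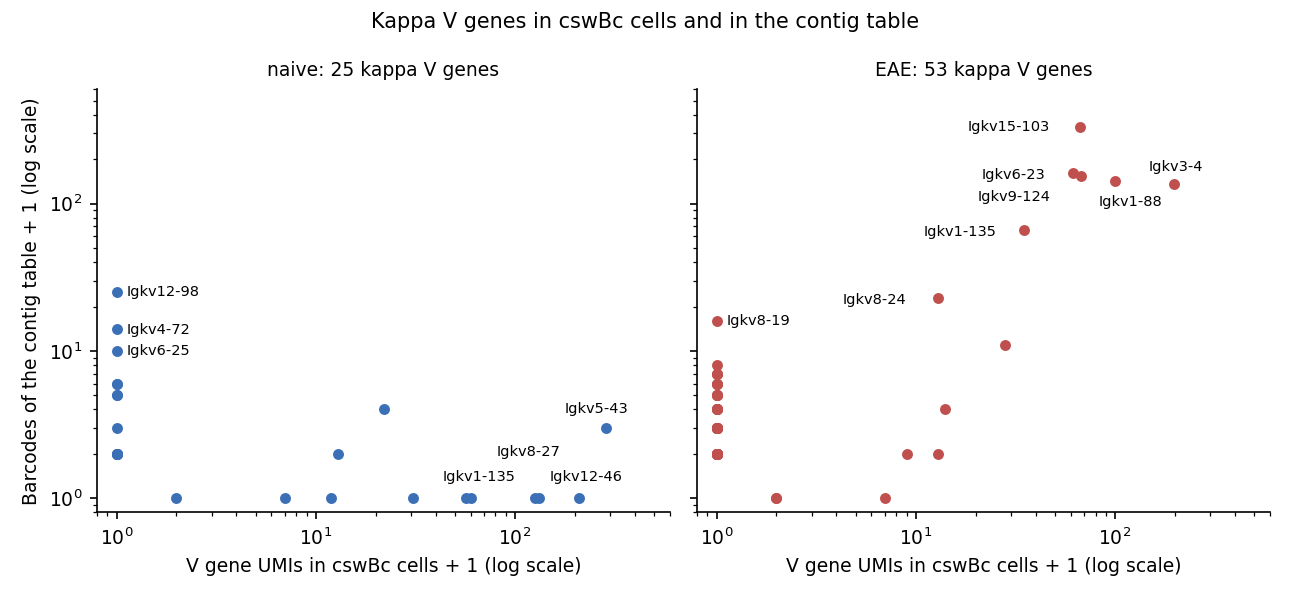
Kappa V genes by their UMIs in cswBc cells of the expression library plus 1 (x axis, log scale) and by the barcodes of the contig table that carried them plus 1 (y axis, log scale), for the naive and EAE libraries; each point is a V gene, and those with most barcodes or most UMIs are named. In EAE the V genes with most barcodes are also high in cswBc cells, whereas the leading kappa V genes of the table labelled naive have 0 UMIs there.

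The cswBc cells themselves were mostly missing from the contig table. Only 3 of 11 had a contig, and in each the contig's V gene was the one that led in the expression library. The contigs had 1428 UMIs for a cell with an IGKV8-30 IGKJ4 chain and 956 and 674 for 2 cells with the same IGKV6-14 IGKJ5 chain:
IGKV8-30 IGKJ4: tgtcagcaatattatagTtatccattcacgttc
IGKV6-14 IGKJ5: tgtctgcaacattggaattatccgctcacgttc

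Both IGKV6-14 cells also had an IGHV1-78 heavy contig with the IgM constant gene, and this light chain was on no other barcode. The same CDR3 with IGKJ5 was listed with IGKV6-23 on 4 more EAE barcodes, a V gene that differs from it at 6 of 21 bases. The other 8 cswBc cells, among them those with the V genes of the 6 leading chains, had no contig under their own barcode. Of the EAE contig barcodes that were not in the library, 3 differed by 1 base from the barcode of such a cell. These carried IGKV1-88 IGKJ2 with 963 UMIs, beside the cell led by Igkv1-88, and IGKV3-4 IGKJ1 with 870 and 669 UMIs, beside the cell led by Igkv3-4. They were among the EAE barcodes with the most UMIs. Of the 290 EAE light chain barcodes outside the library, 61.0% (55.2 to 66.7%) carried a leading chain, and 11 of the table's 12 lambda chains were on them.

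The naive table shared few V genes with the cswBc cells of the naive library. That library had 13 cswBc cells with 85.4% of its Igkc UMIs. Their leading kappa V genes were Igkv12-46 and Igkv2-137 in 3 cells each, and 7 other V genes in 1 cell each, among them Igkv5-43 with 287 UMIs, Igkv8-27 with 131 and Igkv1-135 with 125. Of the 145 naive light chain barcodes, 6 (4.14%, 1.53 to 8.79%) carried such a V gene. The leading naive kappa V genes were at or near 0 in the naive expression library, with 1 UMI of Igkv12-98, 0 of Igkv4-72 and 0 of Igkv6-25. Iglv1 had 1236 UMIs there, of which 1203 were in cswBc cells, and 12 of the 13 cswBc cells had some. Each of these 13 cells had far more Igkc (6751 to 29057 UMIs) than Iglc1 (0 to 97) or Iglc2 (7 to 315). Iglv1 UMIs thus also occurred in cells whose light chain RNA was mostly kappa by these constant genes. In some cells Iglv1 exceeded the leading kappa V gene, with 576 against 131 UMIs in the cell led by Igkv8-27. In others it did not, with 229 against 287 in the cell led by Igkv5-43.

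Few chains were in both tables. There were 4, or 18.2% of the naive and 3.28% of the EAE distinct chains, on 76 naive and 11 EAE barcodes. IGLV1 IGLJ1 was on 65 naive and 6 EAE barcodes, IGKV6-25 IGKJ1 on 9 and 2, IGLV2 IGLJ2 on 1 and 2, and IGKV16-104 IGKJ2 on 1 and 1. Median reads per barcode of IGLV1 IGLJ1 were 786 in the naive and 40555 in the EAE table. The shared chains that have not been shown above were:
IGLV2 IGLJ2: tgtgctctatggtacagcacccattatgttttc
IGKV16-104 IGKJ2: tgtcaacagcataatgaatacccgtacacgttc

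All 4 shared chains were unmutated against the germline V gene over the bases compared, and 0 heavy chains were shared between the tables. None of the 4 was among the 6 leading chains of the EAE table. With every productive light contig counted, 7 chains were in both.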

How the data were processed

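The authors deposited UMI and read counts per contig for each receptor table, and raw UMI counts per gene and barcode with cluster and condition names for the mouse libraries. Cell Ranger 3.1.0 with mm10 is listed per the submitters' processing notes. Receptor cDNA was circularised and enriched from 3′ libraries made with version 3 chemistry, per the labels' protocols. The deposited rows all passed the cell and confidence flags.

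Productive IGK and IGL contigs were kept, 204 naive and 1845 EAE. The contig with most UMIs, then reads, stood for its barcode. A distinct chain is a V gene, J segment and CDR3 nucleotide sequence. CDR3s were compared with germline V transcripts of GENCODE M21 (GRCm38) over 21 bases, less in CDR3s under 33 bases, by the best ungapped fit. All 59 V genes matched. Barcodes were matched by their 16 bases. CPM are summed UMIs per 1000000 UMIs of the same cells, with exact Poisson intervals. A share of 0 allows up to 3 counts of the total. Doublets were not called or removed. No test was run. The steps were checked on simulated contigs, where a second productive light contig always had fewer UMIs than the true one. That check does not cover barcodes whose light chains have similar UMIs. V genes were named from 5% of barcodes or chains in either table, and chains by barcode number, sharing between tables or heavy partners; others, and V genes of single cells, were chosen after their values were seen. Members and lists were chosen with earlier results of these data known. Alternatives changed the contig choice, UMI minimum, barcodes and chain definition. Python 3.11.15, pandas 2.3.3, scipy 1.17.1 and matplotlib 3.10.9 were used.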

Additional observations from a re-analysis of the deposited data

How the results depend on the processing

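Of 159 alternative values over 17 results, 128 stayed within the interval of the reported share or within 1.5 times the reported number, and 31 did not. None moved with a minimum of 2 or 5 UMIs, with chains defined by CDR3 amino acids or nucleotides alone, or without the 8 naive barcodes that share a start. Those 8 all carried lambda, so the kappa J segment and CDR3 length shares could not change. Of the 128, 16 came from leaving out barcodes in both contig tables. There were 0 such barcodes, so these 16 could not change. With reads before UMIs, the naive kappa share was 40.0% and naive IGLV1 57.9%, and EAE IGKV15-103 was 34.5% and EAE IGKJ1 52.1%. With every productive light contig counted, 95.2% of EAE contigs belonged to repeated chains and 7 chains were in both tables. With only barcodes that held a heavy contig, naive IGLV1 was 35.9%, and the EAE table had 75 distinct chains, 80.8% of barcodes in repeated chains, 97.7% at 33 bases and 4.30% IGKJ5. With only barcodes of a single light contig, the naive table had 30.2% kappa, 13 distinct chains and 67.4% IGLV1, and the EAE table had 97.8% kappa, 74 distinct chains, 87.4% in repeated chains and 33.99% IGKV15-103. With only barcodes of the EAE library, there were 99.9% kappa, 51 distinct chains, 96.2% in repeated chains, 99.7% at 33 bases and 1.16% IGKJ5. No naive barcode was in its library, so that alternative was not run there. The 17 barcodes of cluster Bc, chosen after seeing the data as were the leaving out of the 8 barcodes, CDR3 nucleotides alone and all alternatives for chains in both tables, had 94.1% kappa, 17 distinct chains, 0% repeated, 5.88% IGKV15-103, 93.8% at 33 bases, 31.3% IGKJ1 and 12.5% IGKJ5. At the naive barcode number, 28.2 distinct EAE chains are expected. No paired analysis was possible because each condition was a single pooled sample. With 145 naive barcodes, a V gene under 2.07% could go unseen.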

Other observations

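Unproductive light contigs outnumbered the productive ones in both tables, with 295 against 204 in the naive and 2382 against 1845 in the EAE table. IGKV15-103 led them in the EAE table with 551 contigs and IGKV6-25 in the naive table with 39.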
